A study of Mus musculus with 13 samples.

Results

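The genes described here encode the assembly factors of the small (40S) ribosomal subunit, most of them components of the small subunit processome. They were taken from the deposited count table as every row whose symbol follows the Utp naming pattern (9 genes) or equals a listed 40S assembly factor (30 genes), which gave 39 of the 32544 genes in the table. The rule itself uses names and no measured value, and the list was drawn up with earlier results of these data known. RNA was measured in whole lung of male wild-type C57BL/6J mice bought at 7 weeks of age and kept for 5 days in either 21% oxygen (normoxia, 7 libraries) or 80% oxygen (hyperoxia, 6 libraries). Both groups share the strain, the genotype and the handling of the tissue, whose vessels were flushed with cold buffer before freezing, and no gene was altered in either group. The labels do not tie each library to a mouse of its own, so the p-values measure the spread between these libraries.

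Ribosomes are put together in the nucleolus, where RNA polymerase I transcribes a long precursor that holds the RNA of both subunits. The small subunit processome forms on the first part of this precursor, guided by the U3 small nucleolar RNA, and it folds and cuts the RNA that becomes the 18S rRNA. Its proteins come as prebuilt modules named UtpA, UtpB, UtpC and Mpp10, together with enzymes such as the GTPase Bms1, the helicase Dhx37 and the acetyltransferase Nat10. A later set of factors rides with the young subunit into the cytoplasm, where Ltv1 and Tsr1 keep it from translating too soon and the nuclease Nob1, held by Pno1, makes the last cut at the 3′ end of 18S rRNA. Pno1, Tsr1, Ltv1 and Nob1 were taken as the 4 late cytoplasmic factors and the remaining 35 genes as early factors.

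The region around the start of some of these genes carries the E-box CACGTG, the sequence known as a binding site of the MYC family of transcription factors. RefSeq windows (build GRCm38.p6) from 250 bases before to 50 bases after a gene's start were at hand for 31 of the 39 genes, 1 window each, and 10 of the 31 (32.3%) held the 6 letters CACGTG, which read the same on both strands. Among all 32851 RefSeq windows of this length 7.15% held them, and among the 11990 windows of genes tested here 9.62% did. For comparison, the letters CGCG, also identical on both strands and unable to share a base with CACGTG, were in 22 of the 31 windows (71.0%), in 38.0% of all windows and in 65.7% of the windows of tested genes. Other genes can have more than 1 window. Counted per tested gene with the letters in any of its windows, the shares were 11.5% for CACGTG and 73.0% for CGCG. The 30 bases around the E-box are shown for the 6 of the 10 genes with the largest log2 fold changes in hyperoxia, 5′ to 3′ on the gene's strand, with the E-box in capitals.
Pno1: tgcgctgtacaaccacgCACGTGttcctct
Utp20: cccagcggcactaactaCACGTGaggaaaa
Wdr43: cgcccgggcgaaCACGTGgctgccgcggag
Tsr1: tcacttggtgcaCACGTGgactgcagaatg
Utp18: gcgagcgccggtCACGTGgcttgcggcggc
Ltv1: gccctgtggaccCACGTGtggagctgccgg

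These stretches lie at chr11:17211540-17211569 on the minus strand (Pno1), chr10:88826765-88826794 on the minus strand (Utp20), chr17:71616220-71616249 on the plus strand (Wdr43), chr11:74898092-74898121 on the plus strand (Tsr1), chr11:93885769-93885798 on the minus strand (Utp18) and chr10:13193092-13193121 on the minus strand (Ltv1). Counted from the RefSeq start site, the first base of the E-box was at +38 in Pno1 and Utp20, +18 in Wdr43 and +25 in Tsr1. It was at +29 in Ltv1 and -20 in Utp18, so the first base of all 6 lay within 40 bases of that start. Another annotation can begin a gene elsewhere, as GENCODE M21 does for Wdr43 at chr17:71615895, upstream of its RefSeq window. The other 4 genes with the letters were Wdr46 (-12), Utp14b (-63), Imp4 (-121) and Rrp7a (-208), all before the start. A match of letters is a description of the sequence and does not show that a factor binds there.

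Each library held between 1607111 and 4540288 counts, and the 3 counts taken as a floor correspond to 0.656 to 1.84 CPM. CPM stands here for a gene's count relative to the library's total after that total was adjusted by the TMM factor. These are 3′ end counts, in which each read comes from the tail end of a transcript. The library labelled Hyperoxia 1 stood apart, with a mean correlation of 0.779 with the other 12 libraries against 0.886 to 0.919 for the rest. The lung origin was plain in every library, where the surfactant and other alveolar type 2 markers (Sftpc, Sftpb, Sftpa1, Lamp3, Abca3) summed to 12072 to 22656 CPM in normoxia and to 3094 to 6684 CPM in hyperoxia. In the test across all 12496 genes with enough counts (edgeR's quasi-likelihood test, Benjamini-Hochberg adjusted p under 0.05, a gene past it being called), 1473 genes (11.8%) were called higher and 1346 (10.8%) lower in hyperoxia, with a median log2 fold change of -0.03.

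Against that background the RNAs of 40S assembly factors were shifted upward. Of the 38 that could be tested, 19 (50%, against 11.8% of all tested genes) rose in hyperoxia and 0 fell, where 10.8% of all genes did. At an unadjusted p under 0.05 the counts were 25 higher and 0 lower, without a count over all genes at that bar. DESeq2 called 22 higher and 0 lower, and over all 12496 genes it called 1763 higher, where edgeR called 1473. The median log2 fold change of the 38 was 0.63, within a range from -0.36 (Imp3) to 1.58 (Pno1), and 36 of the 38 lay above 0. In 13 of them every hyperoxic library was above every normoxic one, which held for 5.6% of all tested genes. In 0 of them did the groups separate the other way, as they did in 653 of all 12496 tested genes. Large changes were few: Pno1 and Utp20 were the 2 members called higher with a log2 fold change over 1.5, a bar passed by 1.55% of all tested genes. That pair depends on single libraries: Pno1 alone passed without Hyperoxia 1 or 6 or Normoxia 1, 5 or 7 (Utp20 at 1.41 without Hyperoxia 1), Pwp2 joined both without Hyperoxia 5 or Normoxia 2 or 3, and Pwp2 and Utp20 passed without Hyperoxia 3 (Pno1 at 1.44). The method also moved it: limma on log CPM put Pno1 at 1.40 and Utp20 at 1.39, the replicate block put Pno1 at 1.47, and limma-voom put Utp20 at 1.46. The RNA came from whole lung, so more RNA per cell and a larger share of cells that make more of it cannot be told apart.

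**Figure D1:**
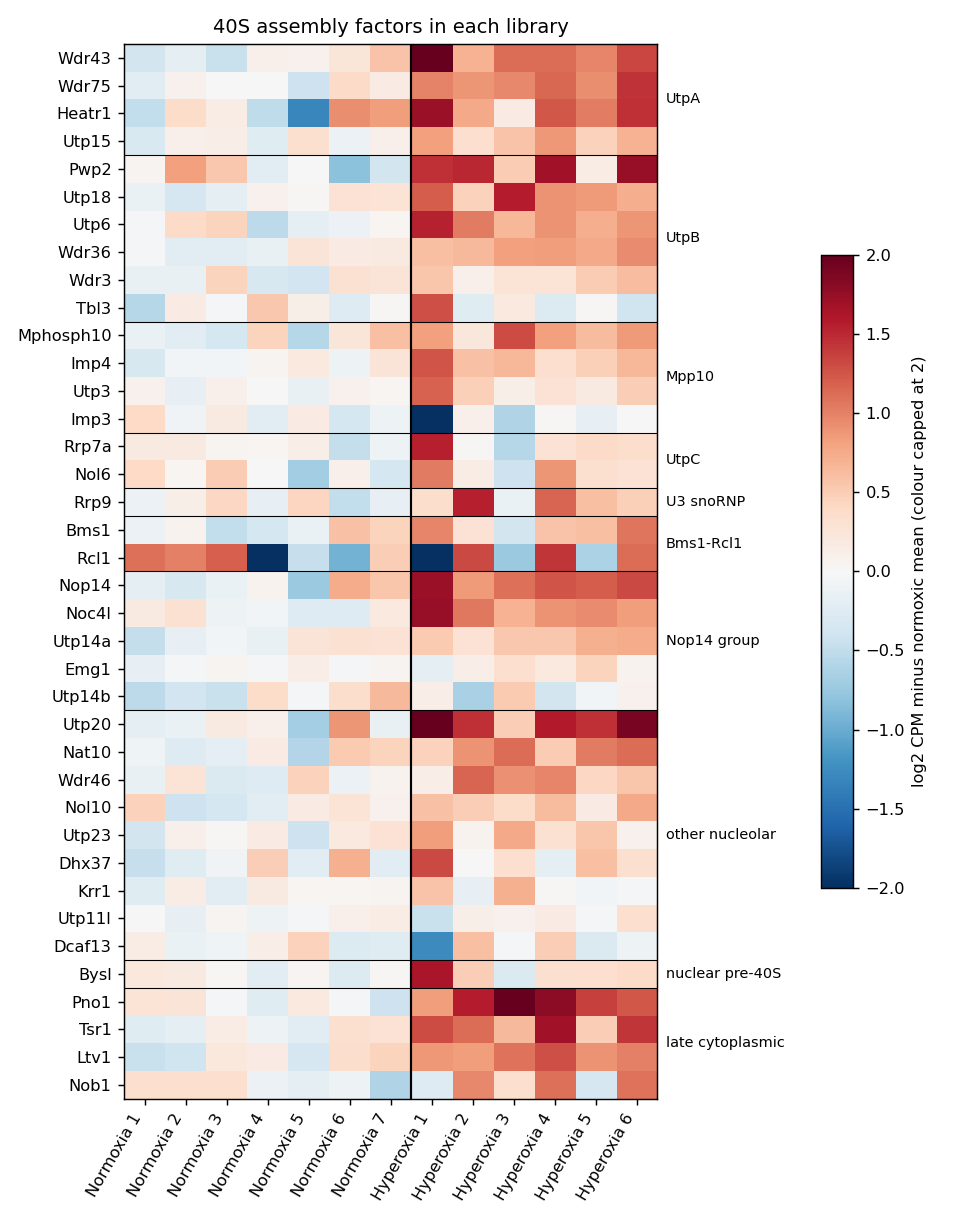
Each cell gives the log2 CPM of 1 factor in 1 library minus the mean of the 7 normoxic libraries, with the colour capped at 2, for the 38 tested factors grouped by role. The 6 hyperoxic columns on the right are mostly red, with 20 to 30 of the 38 factors above every normoxic library in each of them, while Imp3 and Dcaf13 are blue in Hyperoxia 1.

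The shift was visible in each library taken alone. The mean log2 CPM over the 38 factors was 4.53 ± 0.10 (SD, n = 7) in normoxia, from 4.41 to 4.67, and 5.14 ± 0.12 (SD, n = 6) in hyperoxia, from 5.00 to 5.26, so the groups did not overlap. Hyperoxia 3 had the smallest number of factors above every normoxic library, 20 of 38, and Hyperoxia 4 the largest, 30 of 38. Summed over the factors, their RNA made up 1350 to 1588 CPM in normoxia and 1901 to 2981 CPM in hyperoxia. The top value belonged to Hyperoxia 1, and the next hyperoxic library stood at 2187 CPM.

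The late cytoplasmic factors held the strongest single result. Pno1, the RNA-binding partner of the nuclease Nob1, was at 19.4, 19.2, 15.7, 13.5, 18.4, 15.6 and 11.9 CPM in Normoxia 1 to 7 and at 29.0, 48.7, 73.7, 57.1, 42.5 and 38.7 CPM in Hyperoxia 1 to 6. All hyperoxic libraries were above all normoxic ones, with Hyperoxia 1 the lowest of its group. Its mean went from 16.2 ± 2.91 to 48.3 ± 15.6 CPM (SD, n = 7 and n = 6), a log2 fold change of 1.58 with a standard error of 0.21 (edgeR adjusted p = 8.05e-05), the smallest adjusted p among the 38.

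Tsr1 resembles a GTPase and sits on the young subunit where translation factors would bind. Its level was 11.6, 11.9, 15.4, 12.8, 11.6, 17.3 and 17.0 CPM in Normoxia 1 to 7 and 34.8, 30.6, 21.9, 45.5, 19.7 and 38.0 CPM in Hyperoxia 1 to 6. The groups did not overlap, though Hyperoxia 3 and 5 came close to the upper normoxic libraries, and the log2 fold change was 1.18 ± 0.21 (SE; edgeR adjusted p = 0.000967). Ltv1, which has to leave before the subunit can mature, was at 14.2, 14.7, 22.6, 21.9, 15.3, 25.1 and 26.8 CPM in Normoxia 1 to 7 and at 35.9, 35.1, 42.0, 48.7, 36.9 and 39.8 CPM in Hyperoxia 1 to 6. Here too the groups were separate, and the log2 fold change was 0.98 ± 0.18 (SE; edgeR adjusted p = 0.00128).

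Nob1, the nuclease that finishes 18S rRNA, was the late factor that did not pass the test. It was at 10.8, 10.8, 10.8, 7.74, 7.35, 7.80 and 5.35 CPM in Normoxia 1 to 7 and at 6.97, 17.0, 10.8, 18.8, 6.56 and 18.6 CPM in Hyperoxia 1 to 6. Hyperoxia 2, 4 and 6 were above all normoxic libraries, whereas the other 3 lay within the normoxic range. The log2 fold change was 0.61 ± 0.29 (SE; edgeR adjusted p = 0.152). It was 0.40 with limma on log CPM, and in the libraries whose labels carry the letters B to M and O to S it was 0.33 and 1.15, without a call in any of these fits.

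**Figure D2:**
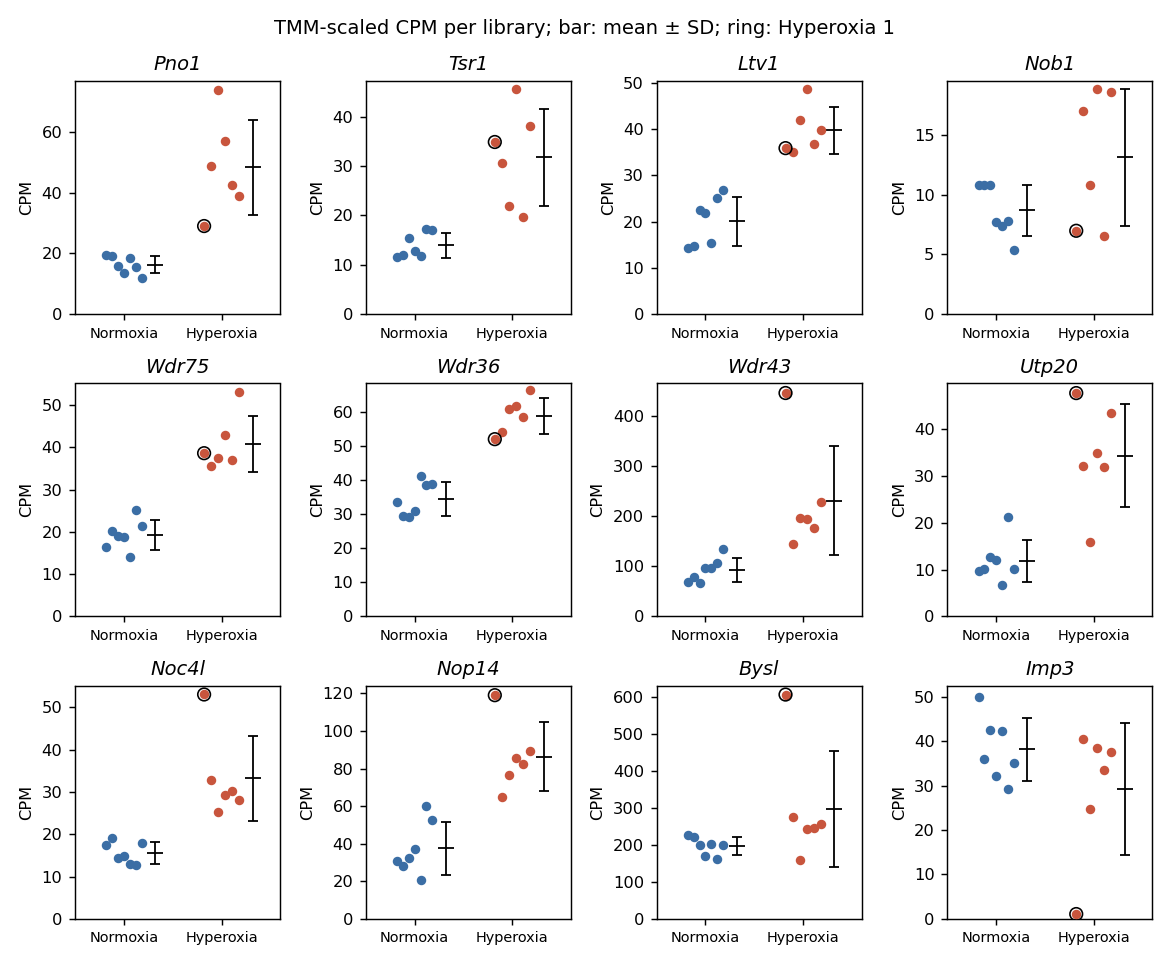
TMM-scaled CPM of 12 factors, 1 point per library, with the mean and SD of each group beside the points and Hyperoxia 1 ringed. For Pno1 the 6 hyperoxic libraries sit between 29.0 and 73.7 CPM and the 7 normoxic ones between 11.9 and 19.4 CPM. In Wdr43, Noc4l and Bysl the ringed library is far above its group. In Nop14 it is the highest of its group, and in Imp3 it is near 0.

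Among the early factors, the UtpA module binds the precursor first, and 3 of the 4 UtpA genes taken by the naming rule were called higher, with a median log2 fold change of 1.03. Its subunits Nol11 and Utp4 were not taken by that rule and stand in the second list of factors. Wdr75 was at 16.4, 20.3, 19.0, 18.8, 14.1, 25.1 and 21.4 CPM in Normoxia 1 to 7 and at 38.6, 35.5, 37.5, 42.8, 36.9 and 53.1 CPM in Hyperoxia 1 to 6. These groups stood well apart, and the log2 fold change was 1.07 ± 0.16 (SE; edgeR adjusted p = 0.000256). Wdr43 was at 69.1, 78.3, 66.1, 96.5, 95.6, 106 and 134 CPM in normoxia and at 446, 145, 196, 195, 176 and 228 CPM in hyperoxia, in the same order of libraries. All its hyperoxic libraries were above the normoxic ones, but Hyperoxia 1 was far from the other 5. The log2 fold change of Wdr43 was 1.32 ± 0.24 (SE; edgeR adjusted p = 0.00112) with all libraries and 1.04 without Hyperoxia 1. Utp15 rose by a log2 fold change of 0.65, and Heatr1, the largest protein of the module, had 0.99 ± 0.36 (SE) without passing the test (edgeR adjusted p = 0.0603).

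The UtpB module, the second to join the precursor, had 4 of 6 members called higher and a median log2 fold change of 0.87. Wdr36 was at 33.6, 29.4, 29.1, 30.9, 41.0, 38.5 and 39.0 CPM in Normoxia 1 to 7 and at 52.0, 54.0, 60.8, 61.7, 58.5 and 66.5 CPM in Hyperoxia 1 to 6. Its rise was modest but even across libraries, with no overlap and a log2 fold change of 0.78 ± 0.13 (SE; edgeR adjusted p = 0.000636), the third smallest adjusted p. Utp18 (1.00), Utp6 (0.97) and Pwp2 (1.39) also rose on the log2 scale. Pwp2 was measured at low depth, from 1.11 to 4.89 CPM in normoxia and from 2.81 to 9.84 CPM in hyperoxia, and it was no longer tested when 10 counts were required in every library. Wdr3 had a log2 fold change of 0.37 and Tbl3 of 0.18, neither called. Tbl3 was at 104.0 CPM in Hyperoxia 1, and leaving that library out turned it to -0.14.

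The Mpp10 module, which contacts the U3 RNA, had 3 of 4 members called higher and a median log2 fold change of 0.59. Its namesake Mphosph10 (0.76), Imp4 (0.69) and Utp3 (0.50) rose. Utp3 had the largest adjusted p of the called members, 0.0389 by edgeR, and it kept its call in 8 of 21 other fits, with a log2 fold change of 0.33 once Hyperoxia 1 was left out. Imp3 had the lowest log2 fold change of all members, -0.36 ± 0.39 (SE; edgeR adjusted p = 0.551). Imp3 stood at 29.3 to 50.03 CPM in normoxia and at 24.7 to 40.4 CPM in 5 hyperoxic libraries, but at 1.07 CPM (2 counts) in Hyperoxia 1. Without that library its log2 fold change was -0.11.

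Of the smaller groups, Nop14 and its partners had 3 of 5 members called higher and a median log2 fold change of 0.55. Nop14 was at 31.0, 28.3, 32.4, 37.3, 20.8, 59.9 and 52.6 CPM in Normoxia 1 to 7 and at 119, 64.6, 76.8, 85.4, 82.5 and 89.4 CPM in Hyperoxia 1 to 6. Its partner Noc4l was at 17.5, 19.2, 14.4, 14.8, 12.9, 12.8 and 17.8 CPM and at 53.1, 32.9, 25.4, 29.3, 30.3 and 28.2 CPM in the same libraries. Both were separate between groups and in both Hyperoxia 1 was the highest, with log2 fold changes of 1.19 ± 0.22 for Nop14 (SE; edgeR adjusted p = 0.00122) and 1.07 ± 0.19 for Noc4l (SE; edgeR adjusted p = 0.000962). Utp14a, which activates the helicase Dhx37, rose by 0.55. Its retrogene copy Utp14b, which lies inside Acsl3 on the same strand, had -0.08, and the rRNA methyltransferase Emg1 had 0.18, neither called. Reads of Utp14a, Utp14b and Acsl3 could be shared in the counting, so the split between the pair is uncertain.

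Utp20, a very large scaffold protein, led the other nucleolar factors, of which 3 of 9 rose, at a median log2 fold change of 0.44. It was at 9.71, 10.1, 12.8, 12.1, 6.74, 21.2 and 10.1 CPM in Normoxia 1 to 7 and at 47.7, 32.1, 16.0, 35.0, 31.9 and 43.5 CPM in Hyperoxia 1 to 6. The groups overlapped because Normoxia 6 was high and Hyperoxia 3 low, and the log2 fold change was 1.52 ± 0.27 (SE; edgeR adjusted p = 0.000821). Nat10, the enzyme that acetylates 18S rRNA, rose by 0.88 and Wdr46 by 0.84 on the log2 scale. Wdr46 was sparse, at 2.62 to 4.90 CPM in normoxia and 3.75 to 8.31 CPM in hyperoxia, and was called in 10 of 21 other fits; the filter of 10 counts left it untested. The other 6 were not called, with log2 fold changes of 0.49 for Nol10, 0.44 for Utp23, 0.42 for the helicase Dhx37, 0.21 for Krr1, 0.06 for Utp11l and 0.02 for Dcaf13. Without Hyperoxia 1 Dhx37 was at 0.19, and within the libraries whose labels carry the letters O to S Dhx37 was at -0.059 and Krr1 at -0.070. Krr1 was at 0.12 without Hyperoxia 3, and Utp11l ran from 0.0095 to 0.15 with single libraries left out. With library size alone Utp11l was at -0.016 and Dcaf13 at -0.047.

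No member of the UtpC module, the U3 particle proteins or the Bms1 pair was called by edgeR over all libraries. The values were 0.42 for Nol6, 0.47 for Rrp7a (0.14 without Hyperoxia 1), 0.82 for Rrp9 (edgeR adjusted p = 0.0587), 0.55 for Bms1 and 0.21 for Rcl1, all log2 fold changes above 0. DESeq2 called Rrp9 (0.85, adjusted p = 0.0310), and Rrp7a was called within the libraries whose labels carry the letters O to S. Rcl1 could hardly be judged, since it ranged from 0 to 7.20 CPM in normoxia and from 0 to 8.62 CPM in hyperoxia. Bysl, which leaves the particle around nuclear export, had 0.60 ± 0.24 (SE; edgeR adjusted p = 0.0845). Its level was 161 to 226 CPM in normoxia and 159 to 274 CPM in 5 hyperoxic libraries, against 605 CPM in Hyperoxia 1, and the log2 fold change was 0.28 without that library. Rrp12, a factor of nuclear export, had 94 counts in all 13 libraries and was left out of the test for low counts. With no filter on low counts it was called higher, at a log2 fold change of 1.87 ± 0.56 (SE; edgeR adjusted p = 0.0300). It had 0 to 5 counts in each normoxic and 5 to 35 in each hyperoxic library, and in CPM 5 of the 6 hyperoxic libraries were above every normoxic one.

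**Figure D3:**
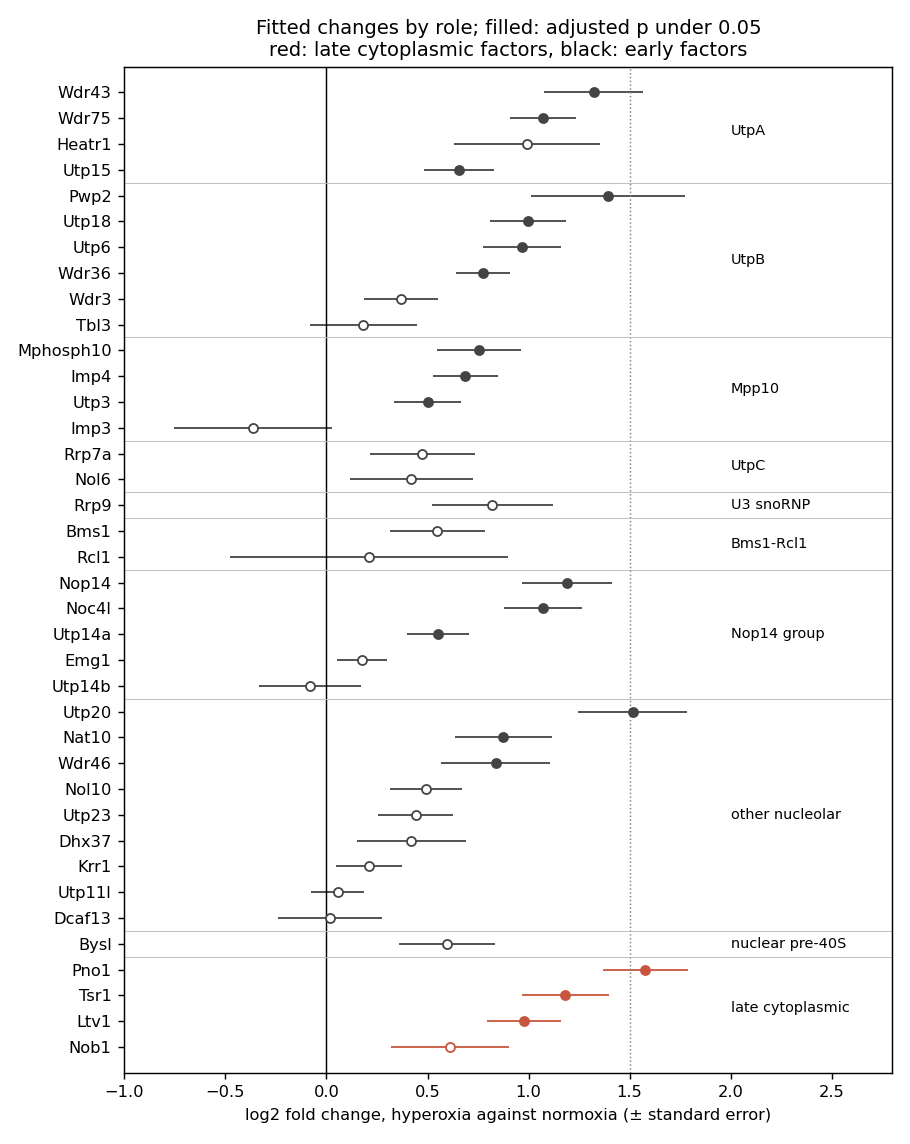
Fitted log2 fold change of the 38 tested factors, hyperoxia against normoxia, with bars of 1 standard error, ordered by role; filled points have an adjusted p under 0.05, late factors are red and the dotted line marks 1.5. The points run from -0.36 for Imp3 to 1.58 for Pno1, 19 are filled, and all filled points are to the right of 0.

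Genes of both stages rose, and the median of the late factors was the higher one. Of the 34 early factors tested, 16 (47.1%) were called higher, with a median log2 fold change of 0.57, and of the 4 late factors 3 were, with a median of 1.08. The range of the late factors, 0.61 to 1.58, lay inside that of the early factors, -0.36 to 1.52, except for Pno1 at its top. With Bysl and Rrp12 moved to the late set the medians were 0.98 for late and 0.55 for early factors. Late factors averaged 3.72 to 4.02 log2 CPM in the normoxic libraries and 4.47 to 5.32 in the hyperoxic ones, and early factors averaged 4.49 to 4.77 and 5.01 to 5.29, with neither set overlapping between groups. The difference between the averages (early minus late, on the log2 CPM scale) was 0.75 ± 0.11 (SD, n = 7) in normoxia and 0.30 ± 0.31 (SD, n = 6) in hyperoxia. It overlapped between the groups: Hyperoxia 1 (0.73) and Hyperoxia 5 (0.62) were within the normoxic range of 0.61 to 0.98, and the other 4 hyperoxic libraries, from -0.07 to 0.25, were below it. No test was made of this difference, since it is a score over chosen genes.

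**Figure D4:**
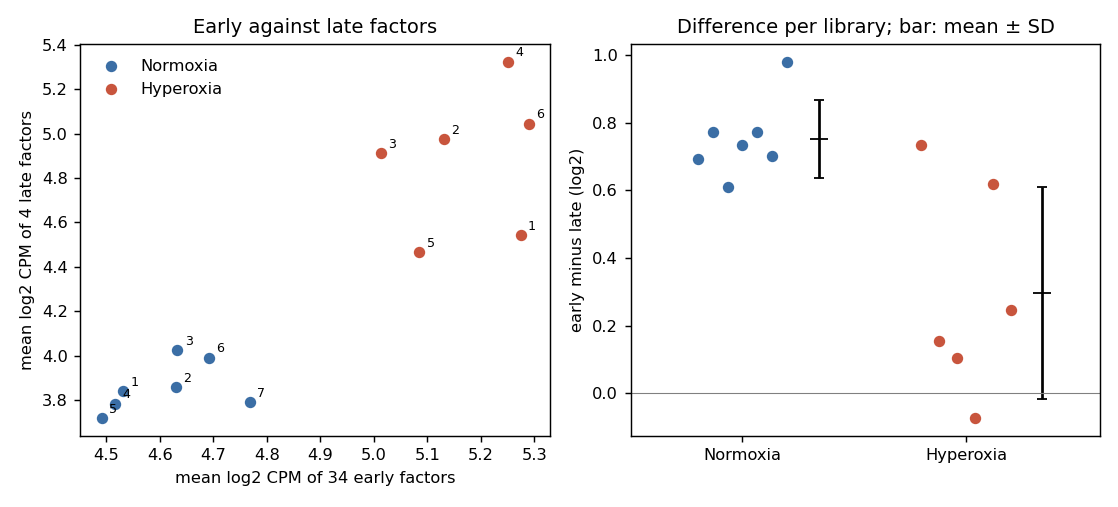
On the left, the mean log2 CPM of the 34 early factors (x axis) is plotted against that of the 4 late factors (y axis), 1 numbered point per library; on the right, early minus late per library with the mean and SD. Both axes separate the groups on the left, with normoxic late averages of 3.72 to 4.02 and hyperoxic ones of 4.47 to 5.32, while on the right Hyperoxia 1 and 5 fall among the normoxic libraries.

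The genes with an E-box near the start can be read beside the same fits. Of the 10, 8 were called higher (all but Rrp7a and Utp14b), and the median of the 10 was 0.99. Of the 21 genes whose window lacked the letters, 9 were called higher and the median was 0.60. Of the 7 tested genes without a window in use, Wdr36 among them, 2 were called and the median was 0.42. The split followed from letters alone, and the ranges overlapped, from -0.08 to 1.58 with the E-box and from -0.36 to 1.39 without it. Over all tested genes 11.8% were called higher. How many of them were called with and without the letters was not counted, and a link between letters and rise was not tested.

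A second list held further 40S factors that the naming rule did not take, 31 of them found in the count table. Of the 30 tested, 15 (50%) rose and 1 fell, and their median log2 fold change was 0.54. The genes that rose included 10 of 18 other processome proteins, Nol11 (0.91), Ddx52 (0.88), Ddx49 (0.84), Fcf1 (0.78), Pdcd11 (0.76), Dnttip2 (0.75), Esf1 (0.70), Ddx10 (0.69), Rsl1d1 (0.68) and Cirh1a (0.91), the last being the older symbol of the UtpA protein Utp4; Nol11 is a UtpA subunit as well. Of 8 other factors of the late precursor 5 rose, namely the kinases Riok3 (1.29), Riok1 (0.57) and Csnk1e (0.58), the ATPase Ak6 (1.07) and the export receptor Xpo1 (0.50). The gene that fell was Tsr3, which modifies 18S rRNA, at -0.78 ± 0.23 (SE; edgeR adjusted p = 0.0213), and 0 of the 4 tested genes that this second list holds for 18S modification rose. The proteins of the finished subunit itself were read beside them. Of 33 tested genes for small subunit ribosomal proteins 3 rose (Rps27l at 1.69, Rpsa at 1.03 and Rps13 at 0.45) and 1 fell (Rps21 at -0.63), with a median of 0.12, and the 9.09% that rose lay near the 11.8% of all tested genes. No test compared that list with the assembly factors.

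The labels open each library's description with a letter whose meaning they do not give. The comparison could be repeated within the letters B to M, which cover 5 libraries of normoxia and 3 of hyperoxia, and within O to S, which cover 2 and 3. Within B to M 12 members rose, at a median log2 fold change of 0.77, where 5.34% of all 12724 genes tested in that fit did. Within O to S 12 rose, at a median of 0.54, where 11% of the 13109 genes tested did. Of the 15 members called in either fit, 13 were among the 19 called over all libraries, and the other 2 were Rrp7a and Rrp12, both in O to S. The 9 members called in both were Ltv1, Noc4l, Nop14, Pno1, Utp20, Utp6, Wdr36, Wdr43 and Wdr75. Within O to S the log2 fold changes of 8 called members differed by over 1.5 times from those over all libraries, with Pwp2 at 2.33, Wdr43 at 0.73, Nop14 at 0.60, Utp18 at 0.54, Nat10 at 0.44, Imp4 at 0.40, Mphosph10 at 0.34 and Utp3 at 0.26. All 19 members called over all libraries had a difference above 0 in both runs of letters, as did 30 of the 38.

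Cell type markers moved between the same groups. Of 5 alveolar type 2 markers 4 were called lower, of 4 club cell markers 2 (summed level 14493 to 53126 CPM in normoxia, 185 to 10088 in hyperoxia) and of 4 B cell markers 4 (110.1 to 156 CPM, 29.2 to 67.6), as were both tested T cell markers (23.5 to 44.7 CPM, 7.99 to 26.3). Actc1 and Myl7, 2 of 4 markers of cardiac muscle, were lower (69.8 to 185 CPM, 4.29 to 148), and so were 1 of 5 endothelial (Tie1) and 1 of 5 alveolar type 1 markers (Rtkn2). Higher calls were 1 of 4 tested fibroblast markers (Pdgfra) and 1 of 5 macrophage markers (Mrc1), and no tested neutrophil or erythroid marker was called by edgeR. Of 10 proliferation genes 1 rose (Ccna2), and their summed level was 220 to 265 CPM in normoxia and 173 to 322 CPM in hyperoxia. No marker was at 0 in every library. Hyperoxia 1 had the lowest summed level of all 13 libraries in 8 of the 12 marker lists, those of club cells (185 CPM), endothelium (1176 CPM), alveolar type 1 cells (588 CPM), macrophages (147 CPM), neutrophils (19.8 CPM), cardiac muscle (4.29 CPM), erythroid cells (41.3 CPM) and proliferation (173 CPM). It was the highest hyperoxic library for B cell (67.6 CPM) and T cell (26.3 CPM) markers. The part of cell composition in the rise of the 40S factors was not tested. Without Hyperoxia 1, 21 members were called higher and 0 lower, with a median log2 fold change of 0.60. In that fit 1934 of 12752 tested genes were called higher, against 1473 of 12496 over all libraries.

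In the GENCODE M21 annotation (GRCm38), 17 members overlap a gene on the opposite strand, among them Pno1 at chr11:17203198-17211568 with Wdr92, Tsr1 at chr11:74898071-74909342 with Srr, and Bysl at chr17:47599331-47611492 with Ccnd3. Whether the counting used strand is not given in the sources used here. Overlap was counted over whole genes, introns included, and overlap of the 3′ ends that were read was not examined. Whether such pairs share reads is therefore not known. The Wdr43 and Tsr1 genes also hold small nucleolar RNA genes on their own strand.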

How the data were processed

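Lung RNA was made into 3′ end (Quant-seq) libraries. The authors quantified the reads with kallisto (build mm10 in the submitters' processing notes) and deposited whole-number counts per gene symbol. These counts were used for every test except limma on log CPM. A second deposited table holds log10 values, by the authors, of CPM plus 1, without the TMM factor. It differed from the same quantity computed from the counts by at most 4.44e-16. Rescaled to log2, it was the input of limma on log CPM and was not used elsewhere. The submitters' notes also name limma 3.54.2. All count columns matched a library label. Groups and replicate numbers came from the labels.

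Counts of the 12496 genes kept by edgeR's filterByExpr were scaled by TMM and tested in R 4.3.3 with edgeR 4.0.16 (glmQLFit, glmQLFTest, hyperoxia against normoxia, no covariate), with Benjamini-Hochberg adjustment over all tested genes and a threshold of 0.05. Requiring in addition a log2 fold change over 1.5 followed the study's own selection. Library means used log2 CPM with a prior count of 2. Alternatives were DESeq2 1.42.0, limma 3.58.1 (voom, and log CPM), library size alone, other count filters, a replicate block, the run of letters as a term or fitted apart, and leaving out each library. Counts of 200 simulated changed genes among 12338 tested the code: 64% of log2 changes of 1 and 100% of log2 changes of 2 were called, with 4.65% of calls false. The simulation gave every gene the same spread between libraries (dispersion 0.106), held no library that stood apart and left sparse genes unchanged. Its shares check the code and are not rates for the calls made here.

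Values per library were given for the 8 members with the smallest adjusted p and the 4 late factors. The log2 fold changes of all other tested members were given, so that none was picked. Levels of Bysl, Rrp12, Rcl1, Imp3, Tbl3, Pwp2 and Wdr46 and the genes overlapping members were singled out after their values were seen. The members and the lists were chosen with earlier results of these data known. Whether PCR copies were removed is not given in the sources used here, and the 3-count floor covers counting error only.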

Additional observations from a re-analysis of the deposited data

Results flagged for a closer look

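In 11 of 88 groups of values examined (each member in each group, and sums, means and their difference over the members), 1 library lay far from the rest of its group by Dixon's ratio, in which the distance of the extreme library from its neighbour is taken relative to the spread from lowest to highest. Chance gives about 1 in 20, or 4.4 of 88, and the groups are not independent because the same libraries serve all of them. Of the 11, 9 were high values of Hyperoxia 1, the library with the lowest correlation with the others.

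The summed CPM of the members in Hyperoxia 1 (2981 against 2187 in the next library) had a ratio of 0.735. Bysl had the highest level in that library, 605 against 274 CPM (ratio 0.742). For Tbl3 the values were 104.0 against 48.6 CPM (ratio 0.768), for Rrp7a 140.5 against 62.2 CPM (ratio 0.719) and for Utp3 179.6 against 111 CPM (ratio 0.723). For Wdr43 they were 446 against 228 CPM (ratio 0.724), for Noc4l 53.1 against 32.9 CPM (ratio 0.729), for Imp4 111 against 73.9 CPM (ratio 0.705) and for Utp6 71.3 against 50.3 CPM (ratio 0.636). Bysl, Tbl3 and Rrp7a are not called with or without Hyperoxia 1, and Wdr43, Noc4l, Imp4, Utp6 and Utp3 are called in both cases.

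The other 2 values belong to different libraries. Rrp12 was at 7.65 CPM in Hyperoxia 6 against 3.50 CPM in the next library (ratio 0.702). Utp20 was at 21.2 CPM in Normoxia 6 against 12.8 CPM in the next (ratio 0.584), and this value accounts for the overlap of its groups together with Hyperoxia 3. No cause of these values was tested.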

How the results depend on the processing

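With DESeq2, limma-voom, limma on log CPM, library size alone, no filter, 10 counts in every library and the run of letters as a term, 16 to 22 members were called higher and 0 lower. Over all genes the number called higher in these fits ran from 1097 (limma on log CPM) to 1763 (DESeq2). Median log2 fold changes of the members lay between 0.52 (limma on log CPM, where the median of all genes was -0.16) and 0.70 (no filter). The requirement of a log2 fold change over 1.5 left 2 called members. Within B to M, 12 members, 9 early and 9 other 40S factors were called, with medians of 0.77 for members and 0.74 for early factors. Within O to S, 12 members, 10 early and 7 other 40S factors were called, and the early median was 0.44. These fits hold 8 and 5 libraries. Leaving out each library in turn gave 17 to 24 members higher and 0 lower, 14 to 21 early, 3 late and 11 to 16 other 40S factors higher, and medians of 0.60 to 0.73 for members, 0.53 to 0.68 for early and 1.00 to 1.16 for late factors, with the late median above the early one by 0.40 to 0.56. Over all genes the number called higher ran from 1256 without Normoxia 2 to 1934 without Hyperoxia 1. Of the 19 called members 13 kept their call in each of the 21 fits outside the runs of letters. Under the block Imp4 (0.72), Utp15 (0.68), Nat10 (0.99) and Pwp2 (1.32) missed the threshold at log2 fold changes near their main values, and Nat10, Pwp2 and Wdr46 were not tested with 10 counts in every library. Utp3 and Wdr46 were called in 8 and 10 fits. Utp3 lost it without any 1 of the 7 normoxic libraries, Hyperoxia 2 or 6 (0.50 to 0.55), and Wdr46 without Normoxia 1, 3, 4 or 6 or Hyperoxia 2 or 4 (0.76 to 0.83). Leaving out Hyperoxia 3 added calls for Bms1 (0.71), Bysl (0.77), Heatr1 (1.16), Nol10 (0.54) and Rrp9 (0.98). Heatr1 was also called without Normoxia 6 or 7, Nol10 without Normoxia 1 or 6 or Hyperoxia 1 or 5, and Rrp9 without Hyperoxia 1. DESeq2 called Heatr1 (1.03), Nol10 (0.52) and Rrp9 (0.85), limma-voom called Nol10 (0.52), and the fit within O to S called Rrp7a (0.62). Rrp12 was called with no filter and within O to S.

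Equal replicate numbers share only a number: the correlations of the 6 pairs were between -0.33 and 0.27, and 1 of 6 pairs correlated best with its own number. With the replicate block, on 12 libraries (Normoxia 7 has no partner), 13 members, 10 early and 8 other 40S factors were called higher, and 703 genes in all. The same 12 libraries without the block gave 19 members, 16 early and 13 other 40S factors and 1277 genes in all.

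Signs turned only in members that were not called. Dcaf13 (0.02) was at -0.014 with limma-voom, -0.16 on log CPM, -0.047 with library size alone, -0.029 with 10 counts in every library, -0.099 with the replicate block, -0.11 within B to M, and -0.11 to 0.19 with libraries left out. Rcl1 was at -0.0070 on log CPM, -0.44 within B to M and -0.078 to 0.44 with libraries left out. Utp11l was at -0.036 on log CPM, -0.016 with library size alone and -0.0042 with 10 counts. Utp14b was at 0.059 with the block, 0.31 within B to M and -0.20 to 0.062 with libraries left out. Within O to S Dhx37 was at -0.059, Krr1 at -0.070, Tbl3 at -0.11 and Imp3 at 0.17, and Tbl3 was at -0.14 to 0.33 with libraries left out. Removing Hyperoxia 1 moved Rrp7a to 0.14, Dhx37 to 0.19, Bysl to 0.28 and Utp3 to 0.33. The causes were not tested.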
